A study of Mus musculus with 764 samples.

Results

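Integrins are adhesion receptors built from 1 alpha and 1 beta chain, and the data described here are the reads of the genes of 10 such chains in single T cells of mice. The genes were taken by name as rows of the 2 deposited count tables: Itga1, Itga2, Itgae, Itgad, Itga4, Itgb7, Itgb1, Itgal, Itgb2 and Itgav. They are 10 of 23997 gene rows, and every one was present in both tables. The cells were CD4+ T cells sorted for an IL-10 reporter from mice that had been given an antibody against CD3 (anti-CD3), an agent that activates T cells through their receptor complex. Spleen and small intestine (SI) cells both came from treated animals, so no untreated level was available. Per the study's methods, the mice carried an eGFP reporter of Il10 and an mRFP reporter of Foxp3 and were age-matched littermates, lymphocytes were taken from the intestinal epithelium and from the lamina propria, and the labels do not tell these 2 compartments apart.

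Each sample was 1 cell in 1 well, and the labels gave neither an animal nor an age. Each tissue was therefore treated as 1 sample, and no test between tissues was possible. Spleen cells stood in 3 sets of wells: set 1 was columns 1 to 12 of plate p1, set 2 was columns 13 to 24 of p1, and set 3 was on plate p2, whose columns 13 to 24 held the SI cells. Of 190 SI cells, 19 were left out for few reads or genes and 34 as cycling, so 72.1% were kept. The same filters kept 400 spleen cells (69.7%), of which 33.25% stood in set 1, 36.25% in set 2 and 30.5% in set 3. The kept cells held 162801 to 622997 reads each, with medians of 324546 in SI and of 366140, 362505 and 315920 in the spleen sets. The T cell label was checked on 4 marker genes, and 100% of the cells of every set had at least 10 reads of at least 1 of them. Cd4, which is among the 4, had at least 10 reads in 99.3% of SI and 98.5% of spleen cells. Of 24 marker genes of B, NK, myeloid, mast, epithelial and platelet cells, the median gene had a read in 0.730% of SI cells and 0.5% of spleen cells. At 10 reads or more, the median gene was at 0% of SI cells and 0.25% of spleen cells. The most frequent was the myeloid gene Cd68, with at least 10 reads in 32.1% of SI and 11.5% of spleen cells. The other measured myeloid genes were rare. Lyz2, Csf1r and C1qa had at least 10 reads in 0, 0 and 1 SI cells and in 3, 4 and 3 spleen cells. The spleen sets also differed in how many cells had a read of Foxp3, which encodes the lineage factor of regulatory T cells: 85 cells of set 1 (63.9%), 26 of set 2 (17.9%) and 8 of set 3 (6.56%), against 9 SI cells (6.57%).

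As background, the alpha chain mostly sets what an integrin binds. The alphaE chain (Itgae, CD103) pairs with beta7 and binds E-cadherin on epithelial cells, and alpha1 (Itga1, CD49a) and alpha2 (Itga2, CD49b) pair with beta1 and bind collagens. The alpha4 chain pairs with beta7 to bind MAdCAM-1 on vessels of the gut, or with beta1 to bind VCAM-1. The alphaL and alphaD chains pair with beta2, and alphaL-beta2 (LFA-1) binds ICAM-1. The alphaV chain pairs with several beta chains, of which beta8 is known for releasing active TGF-beta. AlphaE and alpha1 are the classic surface markers of T cells that stay in epithelia, whereas alpha4-beta7 is known for entry into the gut.

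In the GRCm38.p6 annotation of RefSeq, Itga1 lies on chromosome 13 from 114958079 to 115101964 on the minus strand, next to Itga2 (114833081 to 114932100, minus strand). Itga4 (79255426 to 79333114) and Itgav (83722303 to 83806917) share chromosome 2, and Itgal (127296139 to 127335137) and Itgad (128173933 to 128205504) share chromosome 7, all on the plus strand. Itgae is on chromosome 11 (73090505 to 73147449, plus strand), Itgb1 on chromosome 8 (128685654 to 128733579, plus strand), Itgb2 on chromosome 10 (77530329 to 77565708, plus strand) and Itgb7 on chromosome 15 (102215994 to 102233405, minus strand). Of the measured genes, Pelo overlaps Itga1, Gsg2 overlaps Itgae, Cerkl overlaps Itga4, and 4931431B13Rik and Cox6a2 overlap Itgad. Neither the counting tool nor its use of strand is given in the sources used here, so reads where such genes share bases could not be told apart. Pelo averaged 17.6 CPM (reads scaled to the same total in each cell) in SI and 7.36 in the spleen, and Gsg2, a mitotic kinase gene, 20.6 and 34 CPM. Cerkl averaged 1.65 CPM in SI and 4.45 CPM in the spleen. In SI, 4931431B13Rik averaged 0.11 CPM and Cox6a2 0 CPM, and in the spleen 0.0066 and 0.028 CPM.

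The RefSeq table of promoters held 6 of the 10 genes (Itga1, Itga2, Itga4, Itgb7, Itgb1 and Itgav). The 250 bases before the annotated start were searched on both strands for TGTGGT (bound by Runx factors), GTCTAG (Smad) and TCACACC (T-box), which do not overlap each other. These letters were present in 14%, 7.11% and 3.33% of all 32851 promoters. Among the 6 genes, the Smad letters were in Itga1 alone, starting 52 bases before the start, and the Runx and T-box letters in Itga4 alone, the Runx letters 60 bases before it. Both promoters are shown because these genes differed in opposite directions between the tissues (below), with the matches in capitals. The first lies at chr13:115101965-115102214 (minus strand) and the second at chr2:79255176-79255425 (plus strand).
Itga1: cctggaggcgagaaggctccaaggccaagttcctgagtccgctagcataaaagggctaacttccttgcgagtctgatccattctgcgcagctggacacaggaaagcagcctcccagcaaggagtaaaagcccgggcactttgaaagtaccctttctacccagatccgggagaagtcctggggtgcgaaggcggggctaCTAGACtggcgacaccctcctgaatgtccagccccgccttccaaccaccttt
Itga4: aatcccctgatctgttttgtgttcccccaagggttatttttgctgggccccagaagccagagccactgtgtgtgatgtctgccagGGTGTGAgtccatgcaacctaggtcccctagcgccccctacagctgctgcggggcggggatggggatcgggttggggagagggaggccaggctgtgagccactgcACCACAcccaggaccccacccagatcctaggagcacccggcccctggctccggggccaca
A match is a description of the letters and no evidence of binding, and a promoter without one says nothing about the factor.

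Across the 10 genes, the SI mean lay above all 3 spleen sets for 6 (Itga1, Itga2, Itgae, Itgad, Itgb7 and Itgav) and below all 3 for 4 (Itga4, Itgb1, Itgal and Itgb2). Among the 8824 genes that reached a mean of 10 CPM in either tissue, which all 10 members did, 25.3% lay above all 3 sets and 44.7% below. Itga1, Itga2 and Itgad reached 10 CPM only in SI (spleen means of 0.0068, 6.24 and 2.04 CPM), so they could be counted only as higher in SI. The members were also chosen with earlier results of these data known, so the shares over all genes are no test of the list. The log2 ratio of SI over spleen, here always log2 of mean CPM + 1 in SI over mean CPM + 1 in the spleen, was at least 1 for 4 members (Itga1, Itgae, Itgad and Itga2) and at most -1 for 2 (Itgb1 and Itgal), against 8.26% and 17.4% of the 8824 genes. The median ratio was 0.70 over the members and -0.22 over all genes tested. Scaling by TMM or DESeq2 factors moved the median of all genes up by 0.20 or 0.22 and left the counts of 6 above and 4 below as they were. Under both scalings Itgav passed a log2 ratio of 1 (1.16 and 1.19) and Itgal no longer reached -1 (-0.85 and -0.82), so 5 members were at least at 1 and 1 at most at -1. By mean CPM, the genes higher in SI were thus those of alphaE, alpha1, alpha2, alphaD, beta7 and alphaV. Those lower in SI were the genes of beta1, alpha4 and both chains of LFA-1. Their number, 4 of 10, was no more than the share of all genes below (44.7%). By log2 ratio, 29.6% of the tested genes lay under Itgb2, 18.3% under Itga4, 16.1% under Itgal and 1.97% under Itgb1. The means of Itga2 and Itgad rested on a few cells, the direction of Itgad did not hold in every setting, and the shares of Itgb7 overlapped between the tissues (below). Intervals in the text are 95% exact (Clopper-Pearson) intervals and cover counting error only, since these PCR reads carried no molecular identifiers.

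**Figure D1:**
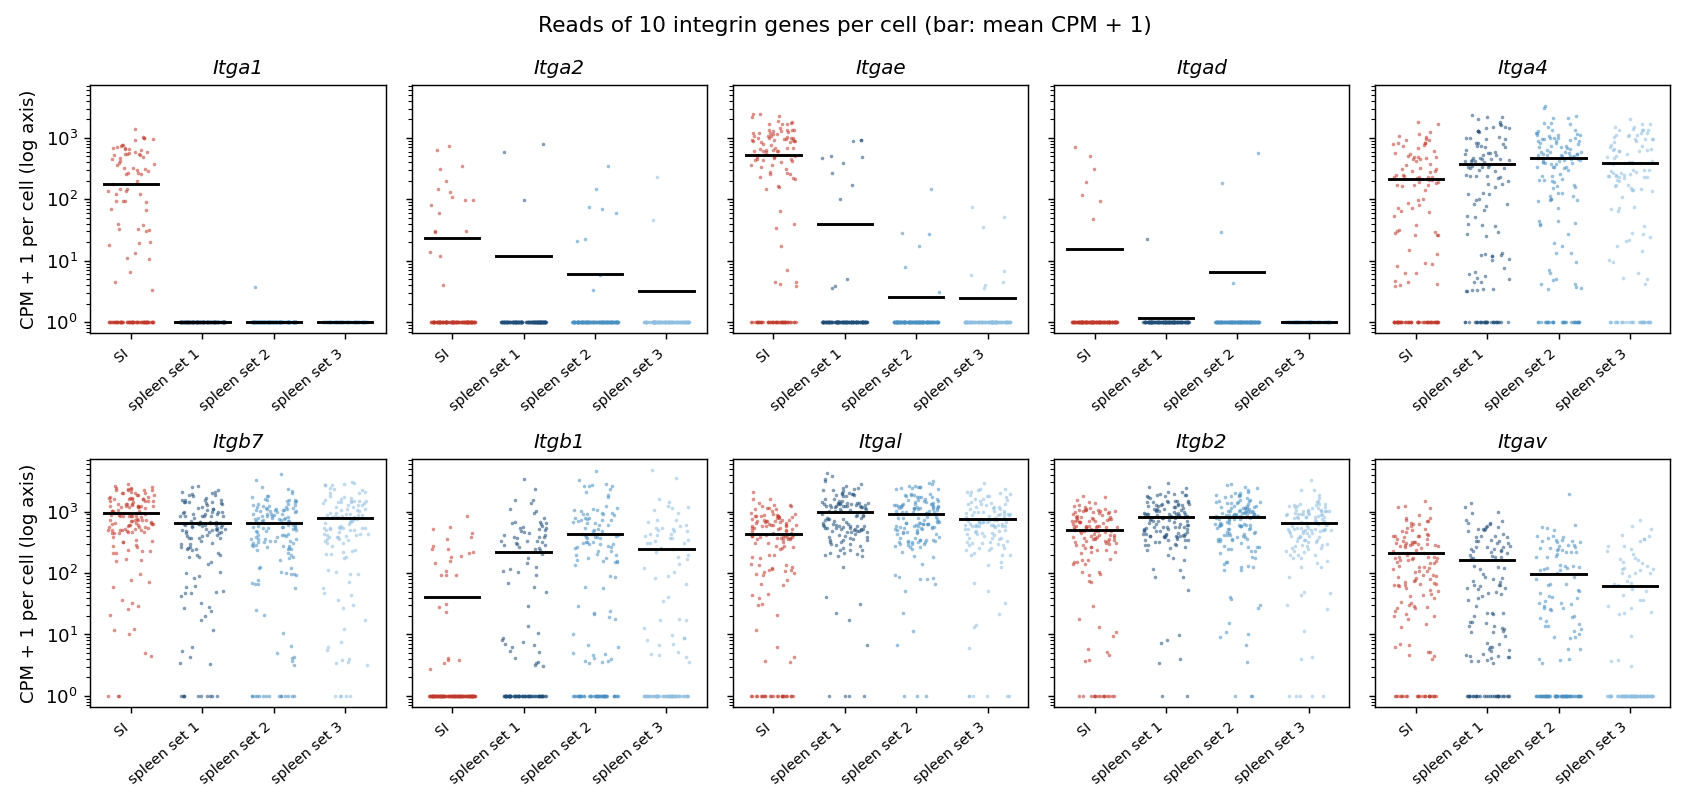
CPM + 1 of each gene on a log axis, with 1 point per kept cell and the mean as a bar, in SI and spleen sets 1, 2 and 3. Itga1 points above the floor stand in SI but for 1 spleen cell, and the Itgb1 mean of SI (39.96 CPM) lies below those of the spleen sets (220.2 to 435.7 CPM).

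Itga1 was close to a gene of one tissue. Its mean was 179.4 CPM in SI and 0, 0.019 and 0 CPM in the 3 spleen sets. The SI cells held 7886 reads of it and the 400 spleen cells held 1. The log2 ratio was 7.49, and 7.47 to 7.49 against the single sets. At least 10 reads were found in 58 SI cells (42.3%, interval from 33.9 to 51.1%) and in none of the 400 spleen cells, a count that would still permit a share of 0.750%. In summed reads per total, SI stood at least 2837-fold above set 1 and at least 2396-fold above set 3, each taken at a floor of 3 reads. Against set 2, with its 1 read, the ratio was 9125-fold with a counting interval of 1637 to 360467. The highest SI cell had 1398 CPM and the median of the 58 cells was 369.2 CPM, while the median over all SI cells was 0. SI cells thus fell into those with a high level and those with few or no reads, as the plot of CPM per cell shows. Among the spleen cells left out as cycling (S or G2M), 5 (3.50%) had at least 10 Itga1 reads, and with cycling cells included the log2 ratio was 6.03.

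Itgae, the alphaE gene, averaged 518.9 CPM in SI and 38.6, 1.54 and 1.46 CPM in spleen sets 1, 2 and 3. At least 10 reads were present in 82 SI cells (59.9%, 51.1 to 68.1%) and in 10, 2 and 3 cells of the spleen sets (7.52%, 1.38% and 2.46%). The SI interval did not overlap that of any spleen set. The log2 ratio was 5.13 with all spleen cells and 7.70 without set 1. In set 1, the top 3 cells held 55.2% of the Itgae reads. A Foxp3 read was found in 9 of the 10 Itgae cells of set 1, and in 63.9% of all its cells. There Itgae was present in 10.6% of cells with a Foxp3 read (4.96 to 19.2%) and 2.08% of those without (0.05 to 11.1%), with overlapping intervals. In sets 2 and 3, 0 of 26 and 0 of 8 cells with a Foxp3 read had Itgae.

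Itga2 and Itgad were rare in both tissues, and their means rest on a few cells. Itga2, whose product CD49b is used to mark IL-10-producing type 1 regulatory cells, averaged 22.3 CPM in SI and 11.1, 5.07 and 2.27 CPM in the spleen sets. At least 10 reads were seen in 13 SI cells (9.49%, 5.15 to 15.7%) and in 3, 5 and 2 spleen cells (2.26%, 3.45% and 1.64%), and the intervals overlapped. The top 3 cells held 53.5% of the SI reads of Itga2 and 100% of those of set 1. Its log2 ratio was 1.69, with 0.94, 1.94 and 2.83 against the single sets, and 2.88 without cells that had a Foxp3 read.

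Itgad averaged 14.4 CPM in SI and 0.16, 5.47 and 0 CPM in the spleen sets, a log2 ratio of 2.34. It had at least 10 reads in 7 SI cells (5.11%, 2.08 to 10.2%) and in 0, 2 and 0 spleen cells, with overlapping intervals, and 3 cells held 76.6% of its SI reads. Its direction turned when cells with a read of Cd8a, the CD8 alpha chain gene, were left out: the log2 ratio was then -1.06 and the SI mean fell within the range of the spleen sets. All 7 Itgad cells of SI also had at least 10 reads of Itgae and of Itgb2, the gene of the chain with which alphaD pairs.

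Of the chains of gut entry, Itgb7 was the most widely detected member in SI. Its mean was 934.3 CPM there and 643.8, 648.9 and 798.2 CPM in the spleen sets, and 92% of SI cells and 84.96%, 83.4% and 86.1% of spleen cells had at least 10 reads. The shares' intervals overlapped (86.1 to 95.9% in SI). The log2 ratio was 0.43, and 0.23 against set 3, the set on the same plate as SI.

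Itga4 went the other way, with 210.8 CPM in SI and 378.2, 465.8 and 384.2 CPM in the spleen sets. Its shares were 47.4% in SI (38.9 to 56.1%) and 60.2%, 69% and 63.1% in the spleen, and the SI interval overlapped those of sets 1 and 3. Cells with both chains of alpha4-beta7 made up 43.1% of SI cells (34.6 to 51.8%) and 54.8% of spleen cells (49.7 to 59.7%).

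Itgb1, the partner of alpha1, alpha2 and alpha4, had the lowest ratio of the members. It averaged 39.96 CPM in SI against 220.2, 435.7 and 241.7 CPM in spleen sets 1, 2 and 3, a log2 ratio of -2.90 (-2.43, -3.41 and -2.57 against the single sets). At least 10 reads were found in 14.6% of SI cells (9.15 to 21.6%) and in 39.8%, 55.9% and 36.1% of the spleen sets, and the SI interval overlapped none of them. In the SI cells with at least 10 reads, the median was 214.1 CPM, against 417.1 CPM in such spleen cells.

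The LFA-1 chains were found in most cells of both tissues, at a lower level in SI. Itgal averaged 430.9 CPM in SI and 975.0, 930.8 and 754.8 CPM in the spleen sets (log2 ratio -1.05). Itgb2 averaged 493.5 CPM and 815.0, 804.0 and 649.6 CPM (log2 ratio -0.62). Both chains together had at least 10 reads in 62.8% of SI cells (54.1 to 70.9%) and in 90.2%, 89% and 84.4% of the spleen sets, whose intervals all lay above that of SI.

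Itgav, the alphaV gene, varied over the spleen sets, with a mean 2.73-fold higher in set 1 than in set 3. The means were 210.4 CPM in SI and 164.3, 94.6 and 60.1 CPM in sets 1, 2 and 3, and its shares 67.2% (58.6 to 74.9%) and 51.1%, 40.7% and 29.5%. The log2 ratio was 0.97 over the whole spleen but 0.35, 1.14 and 1.79 against the single sets, and the SI interval of the share overlapped that of set 1 only. The order of the spleen sets by Itgav is also their order by cells with a Foxp3 read, and a link between the 2 was not tested.

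**Figure D2:**
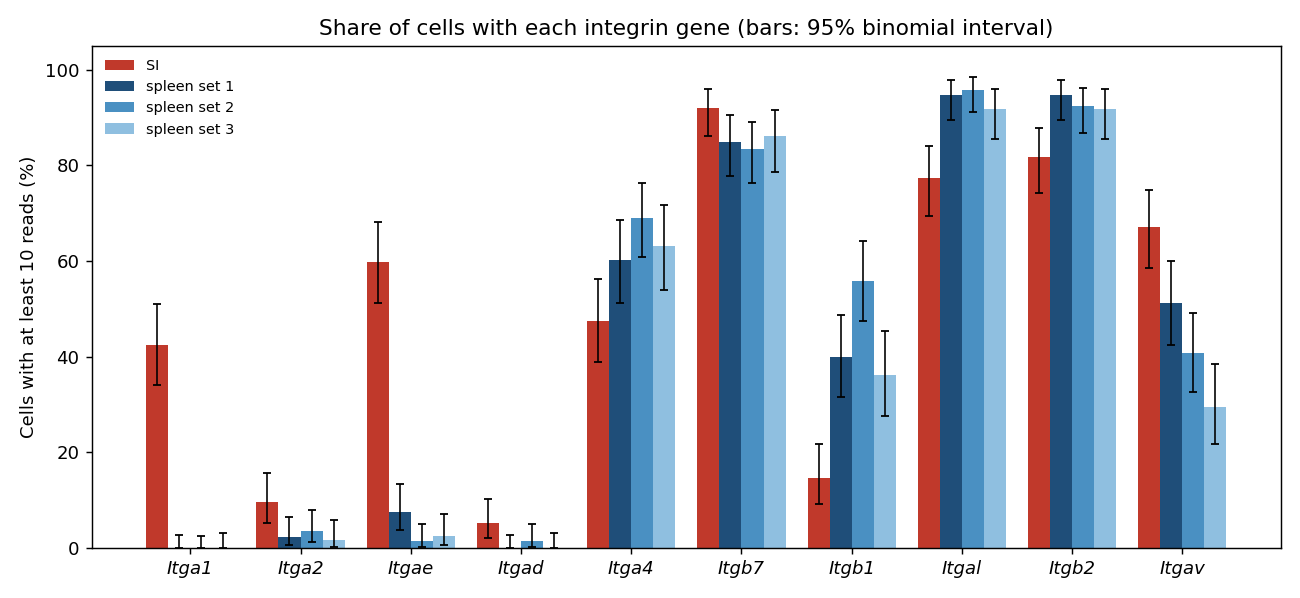
Percent of kept cells with at least 10 reads of each gene in SI and the 3 spleen sets, with 95% exact binomial intervals as error bars. The SI bars of Itga1 (42.3%) and Itgae (59.9%) stand over spleen bars of 0 to 7.52%, and the Itgb1 bar of SI (14.6%) is below spleen bars of 36.1 to 55.9%.

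Levels of different genes were compared per kilobase (kb) of annotated coding sequence. In SI the order was Itgb7 (385.6 CPM per coding kb), Itgb2 (211.7), Itgae (148.2), Itgal (113.8), Itga4 (68.1), Itgav (67.2), Itga1 (50.7), Itgb1 (16.2), Itga2 (6.30) and Itgad (3.82). In the spleen it was Itgb2 (326.3 CPM per coding kb), Itgb7 (285.9), Itgal (235.4), Itga4 (133.01), Itgb1 (123.6), Itgav (34.2), Itgae (3.95), Itga2 (1.76), Itgad (0.54) and Itga1 (0.0019). AlphaE was at rank 3 in SI and rank 7 in the spleen, per coding kb and also per kb of all annotated exons. Other places depended on the length used. Per exon kb, Itgb1 was above Itga4 in the spleen (74.7 against 29.5 CPM per exon kb) and just above Itga1 in SI (9.79 against 9.64), Itgav was above Itga4 in SI (19.6 against 15.1), and Itgb7 and Itgb2 were close in the spleen (250.1 and 249.2).

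A mean of 4.97 of the 10 genes had at least 10 reads per SI cell (SD over cells 1.40, range 2 to 8), against 4.35, 4.43 and 4.02 in the spleen sets. After each cell was thinned to 200000 reads, the means were 4.83 in SI and 4.17 in the spleen. The counts of 7 and 8 members were reached by 16 and 6 SI cells (11.7% and 4.38%) and by 5 and 1 spleen cells (1.25% and 0.25%). These numbers depend on which genes the list holds. Itgae had at least 10 reads in 59.9% of SI and 3.75% of spleen cells, and Itga1 in 42.3% and 0%. Itga2, Itgad, Itgb7 and Itgav also had larger shares in SI, and Itga4, Itgb1, Itgal and Itgb2 had smaller ones.

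Co-detection within cells was examined next, with a gene counted as present at 10 reads or more. Itga1 and Itgae were present together in 47 SI cells (34.3%, 26.4 to 42.9%), Itga1 alone in 11, Itgae alone in 35 and neither in 44. Itga1 was present in 57.3% of cells with Itgae (45.9 to 68.2%) and in 20% of cells without it (10.4 to 33.04%), and the median reads of these cells were 325637 and 323668. Conversely, 81% of Itga1 cells had Itgae, against 44.3% of the others. The 2 genes thus overlapped in SI cells of like depth, and 11 cells had Itga1 without Itgae. Their Spearman correlation over all kept SI cells was 0.35.

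Of the 82 Itgae cells in SI, 78 also had Itgb7 (95.1%, 87.98 to 98.7%), against 87.3% of the cells without Itgae, and Itgb7 was present in 92% of all SI cells. Of the chains of alpha1-beta1, 7 of the 58 Itga1 cells had Itgb1 (12.1%, 4.99 to 23.3%), against 16.5% of cells without Itga1. Of 13 Itga2 cells in SI, 1 had Itgb1, and of 10 in the spleen 6 had it. With 1 read as the limit, Itgb1 was still found in only 19.7% of SI cells. A low level of Itgb1 in the other cells could have been missed, and whether depth played a part was not tested. In the spleen, Itga4 was present in 72.5% of Itgb1 cells (65.3 to 78.9%) and 57.7% of the others (50.9 to 64.2%). The difference had the same direction in all 3 sets (64.2 against 57.5%, 74.1 against 62.5% and 79.5 against 53.8%), with overlapping intervals within each set. Both chains of alpha4-beta1 were present in 32.2% of spleen cells and 8.76% of SI cells.

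**Figure D3:**
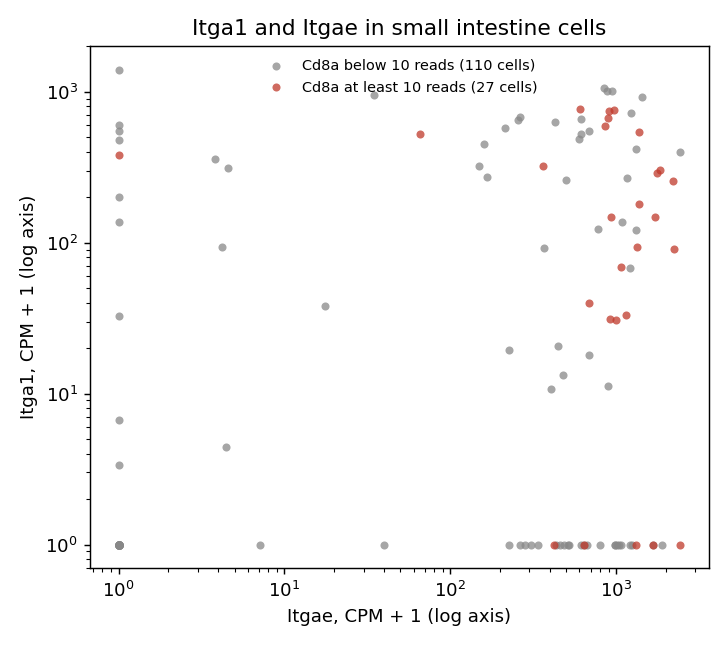
Itgae against Itga1 in the kept SI cells, both as CPM + 1 on log axes, with 27 cells that had at least 10 reads of Cd8a in red. Red points gather at high Itgae: 26 of the 27 had at least 10 reads of Itgae and 22 had at least 10 of Itga1.

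The 4 classes of SI cells, with both genes, either or neither, were compared in further genes. Gzma, the granzyme A gene of cytotoxic granules, had at least 10 reads in all 47 cells with both, in 97.1% of cells with Itgae alone, 81.8% of cells with Itga1 alone and 63.6% of cells with neither. The mean of Gzma was 51035 CPM in cells with both, 43056 CPM with Itgae alone, 47069 CPM with Itga1 alone and 13840 CPM with neither, so the mean was lowest in the cells with neither. Il10 was present in 97.9% of cells with both and 93.2% with neither, and Itgb2 in 87.2% and 70.5%, with overlapping intervals for each gene. Cd8a was present in 44.7% of cells with both, 14.3% with Itgae alone, 9.09% with Itga1 alone and none of the 44 with neither, a count that would still permit a share of 6.82%. Over all SI cells, Itgae was present in 96.3% of Cd8a cells (81 to 99.9%) and 50.9% of the rest (41.2 to 60.6%), and Itgav in 48.1% (28.7 to 68.1%) and 71.8% (62.4 to 79.95%), with overlapping intervals for Itgav. Without the cells that had any Cd8a read, 31.6% of SI cells had Itga1, 49% had Itgae and 22.4% had both. Cd8b1, the CD8 beta chain gene, was present in 5.84% of all SI cells and 11.5% of spleen cells, and Cd4 in 99.3% and 98.5%.

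By Spearman correlation over the kept SI cells, among 3553 genes with at least 10 reads in 25% or more of them, the genes most like Itga1 were Ccl5 (0.57), Cd7 (0.46), Dapk2 (0.42), Litaf (0.42) and Padi2 (0.40). Those most like Itgae were Cd7 (0.62), Gzma (0.55), Ccl5 (0.54), Gzmb (0.54) and Mctp2 (0.47). Ccl5 encodes a chemokine, and Gzmb another granzyme. These cells share 1 plate, and the values are descriptions. The labels name no animal for these cells and do not tell epithelium and lamina propria apart. In the spleen the highest correlation was 0.26 for Itgb1 and 0.20 for Itgae, too weak in sparse counts to name a gene.

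**Figure D4:**
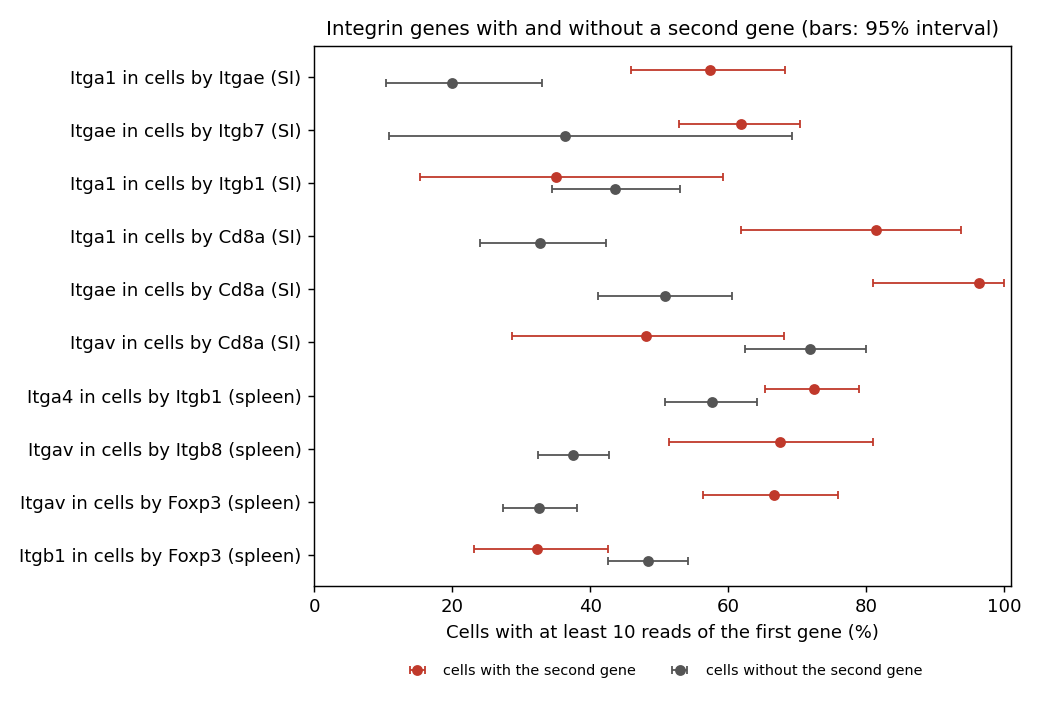
Percent of cells with at least 10 reads of a first gene among cells with (red) and without (grey) at least 10 reads of a second gene, with 95% exact intervals, in the tissue named. Itga1 by Itgae reads 57.3% against 20% in SI, and Itgav by Foxp3 reads 66.7% against 32.6% in the spleen.

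In the spleen, Itgav was found more often in cells with Foxp3. At 10 reads or more of both, 66.7% of the 96 Foxp3 cells had Itgav (56.3 to 76%), against 32.6% of the others (27.3 to 38.1%). By any Foxp3 read, the shares were 64.7% and 27.1% in set 1, 61.5% and 36.1% in set 2, and 37.5% and 28.9% in set 3, where 8 cells had a Foxp3 read. The intervals were apart in set 1 and overlapped in sets 2 and 3. The order of the sets seen over all cells was thus also that of cells with a Foxp3 read (64.7%, 61.5% and 37.5%). It was not that of cells without one (27.1%, 36.1% and 28.9%). What sets the order was not tested. Itgb8, the beta chain with which alphaV activates TGF-beta, averaged 35.7, 12 and 6.50 CPM in the spleen sets and 5.25 CPM in SI. Itgav was present in 67.4% of the 43 spleen cells with Itgb8 (51.5 to 80.9%) and 37.5% of the others (32.5 to 42.8%), and 29 of those 43 cells were in set 1. Itgb1 had the opposite relation to Foxp3, with 33.6% of spleen cells with a Foxp3 read (25.2 to 42.8%) and 49.1% of those without (43.1 to 55.1%), and it was lower in Foxp3 cells of each set, with overlapping intervals within sets.

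**Figure D5:**
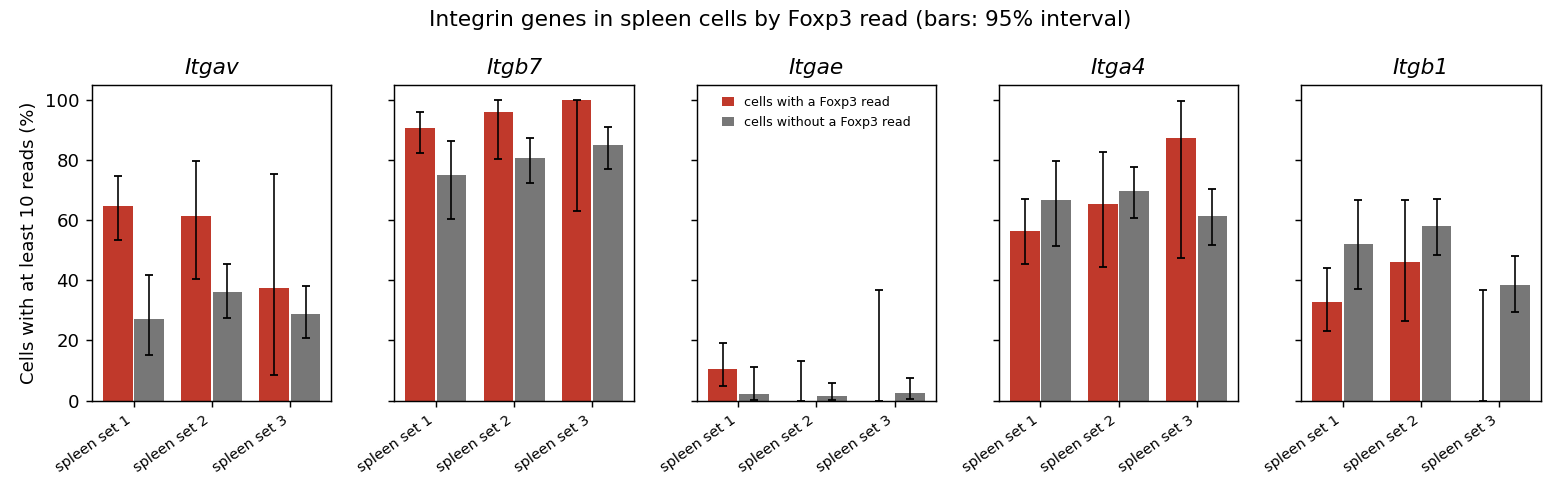
Percent of spleen cells with at least 10 reads of 5 integrin genes in cells with (red) and without (grey) a Foxp3 read, by spleen set, with 95% exact intervals. The Itgav bars of set 1 are 64.7% and 27.1%, and set 3 has only 8 cells with a Foxp3 read.

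The other integrin genes and the genes that act on integrins were described from 5 lists. Of 16 other integrin subunits 4 reached 10 CPM, of which 2 lay above and 2 below all spleen sets, with a median log2 ratio of 0.01 against -0.22 over all genes. Itgb3, another partner of alphaV, averaged 102.6 CPM in SI and 26.95, 42.7 and 38.9 CPM in the spleen sets (log2 ratio 1.47). Itgb8 had a log2 ratio of -1.62, but -0.27 against set 3. Itgb5 was at 1.58 CPM in SI and listed at 0 in all spleen sets. In SI, both Itgav and Itgb3 were present in 31 cells (22.6%), and Itgav was present in 72.1% of Itgb3 cells and 64.9% of the others, with overlapping intervals.

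The ratios of genes that switch integrins on lay around 0. Of 25 activation and adaptor genes 20 reached 10 CPM, with 5 above, 7 below and 8 within the spleen sets and a median log2 ratio of -0.07. Tln1, the talin gene whose product binds beta tails, stood at -0.08, and Fermt3, the kindlin gene of blood cells, at -0.62. Cytip, a regulator of integrin-bound cytohesins, was the 1 gene at or past a log2 ratio of 1 (1.0; 3352 CPM in SI and 1675 CPM in the spleen). Rasgrp2, an activator of Rap1 upstream of LFA-1, was the 1 gene at or under -1 (-1.19), and ranged from -0.18 against set 1 to -2.03 against set 3.

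Of 12 ligand genes 5 reached 10 CPM, with 1 above, 3 below and 1 within the spleen sets and a median log2 ratio of -2.40. Icam1, a ligand of LFA-1, was higher in SI (157.9 against 74.3 CPM, log2 ratio 1.08) and its relative Icam2 lower (11.5 against 65.1 CPM, -2.40). Spp1, osteopontin, a ligand of alphaV, had a lower mean in SI (7.08 against 262.2 CPM), but 3 cells held 94.7% of its 42551 spleen reads, and it had at least 10 reads in only 8 spleen cells and 4 SI cells. Its reads stood mostly in sets 1 and 2 (27583 and 14341 reads). Lrrc32, which holds latent TGF-beta on regulatory T cells for alphaV-beta8, was at 85.7, 9.06 and 1.41 CPM in the spleen sets and listed at 0 in SI. Lrrc32 was thus highest in the set with most Foxp3 cells.

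Of 13 genes of homing, residency and egress, 12 were in the tables and 11 reached 10 CPM, with 6 above, 4 below and 1 within the spleen sets and a median log2 ratio of 0.37. Ccr9, the receptor for the gut chemokine CCL25, had a log2 ratio of 3.53, Cd69, which opposes egress, 2.11, and Runx3, a transcription factor known to act on Itgae, 1.11. Lower in SI were S1pr1, the receptor of egress (log2 ratio -6.46), the chemokine receptor gene Ccr7 (-7.90) and Klf2, a transcription factor known to act on S1pr1 (-4.25).

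All 11 genes of TGF-beta and retinoic acid response reached 10 CPM, with 4 above, 5 below and 2 within the spleen sets and a median log2 ratio of 0.03. Above were Skil (2.57) and Smad7 (1.92), both known as feedback genes of TGF-beta signalling, the receptor gene Tgfbr2 (1.10) and Ski (0.50). At or under a log2 ratio of -1 were Smad3 (-1.37), Rarg (-1.15) and Rxra (-2.03). The list thus pointed in both directions.

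Within SI, columns 13 to 18 and 19 to 24 of the plate were compared. The shares were 39.7% and 44.9% for Itga1 and 60.3% and 59.4% for Itgae, and the intervals overlapped for all 10 members. With the SI cells ordered by total reads and cut into 3 classes, Itga1 was present in 39.1%, 42.2% and 45.7% and Itgb1 in 23.9%, 11.1% and 8.70%, from the lowest to the highest class. The intervals of the 3 classes overlapped for Itgb1 (12.6 to 38.8%, 3.71 to 24.1% and 2.42 to 20.8%). Tissue and wells on plate p2 cannot be told apart.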

How the data were processed

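Single IL-10 reporter CD4+ T cells were sequenced with SMART-seq2, a full-length protocol without molecular identifiers. Per the labels the authors aligned reads with STAR to mm10. The study's methods name an older build, and the counting tool, annotation and strand setting are not given in the sources used here. The deposited values were whole read counts per gene in 764 cells, with 0 columns left unused. The reporter row was left out, 88 rows join several gene names, and 2 names occurred more than once (the first row was used). No columns were identical.

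Cells were removed when log reads or log genes fell more than 3 median absolute deviations below their tissue's median, or when cyclone (scran 1.30.0, 635 of its 667 marker genes) called them S or G2M. No doublet caller was run on these singly sorted wells. CPM was computed per cell, and each cell had the same weight in a mean. A gene was present at 10 reads. The pseudocount of 1 CPM understates the ratio of low genes, and genes under 10 CPM in both tissues were left out of counts over all genes. A share of 0 has a limit of 3 cells of the total.

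Since no animal was named, no p-value or standard error was computed. TMM and DESeq2 factors (edgeR 4.0.16, DESeq2 1.42.0) served only as other scalings. Scripts were tested on simulated data. The members and gene lists were chosen with earlier results of these data known. Named were the 10 members, list genes outside the spleen sets with a log2 ratio of at least 1 in size, Itgb3, Itgb5, Itgb8, and the 5 genes most correlated with Itga1 and Itgae in SI. Tln1, Fermt3, Ski and the pairs shown were chosen after their values were seen. Protein sequences were not analysed here, and 1 list gene is not reported here.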

Additional observations from a re-analysis of the deposited data

Results flagged for a closer look

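The cells left out as S or G2M (34 cells in SI) entered only the values said to include cycling cells. Members seen there in more cells than a finding of none would permit (8.82% in SI and 2.10% in the spleen) are given as values. In the SI cells, at least 10 reads were found for Itga1 in 32.4%, Itga2 in 14.7%, Itgae in 47.1%, Itga4 in 67.6%, Itgb7 in 97.1%, Itgb1 in 11.8%, Itgal in 88.2%, Itgb2 in 97.1% and Itgav in 73.5%. In the spleen cells, at least 10 reads were found for Itga1 in 3.50%, Itga2 in 4.90%, Itgae in 6.99%, Itgad in 3.50%, Itga4 in 73.4%, Itgb7 in 92.3%, Itgb1 in 51%, Itgal in 93%, Itgb2 in 95.8% and Itgav in 39.2%. The 5 spleen cells with Itga1 came from set 2 (3 of 39 such cells) and set 3 (2 of 57), held at most 74 Itga1 reads, and none had at least 10 reads of Cd8a. In the kept spleen cells Itga1 reached 10 reads in 0 of 400. The interval of the Itga4 share in the SI cells (49.5 to 82.6%) overlapped that of the kept SI cells.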

How the results depend on the processing

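Each tissue is 1 sample without a named animal, so no value here has a replicate check, and sets of wells within the spleen show only part of the spread. No paired analysis was possible because the labels name no animal, and no comparison comes from a test. The counts of members above (6) and below (4) all spleen sets held under 7 other ways of filtering, scaling or thinning; without cells with a Cd8a read, Itgad was the 1 member within the sets, its log2 ratio turned to -1.06 (the cause was not tested), and the share of SI cells with both Itga1 and Itgae was 22.4%. With 1 read as the limit, the mean number of members per cell was 5.64 in SI and 4.89 in the spleen, and it was 4.02 with spleen p2 alone. The ratio of Itga1 ran from 4.24 with a pseudocount of 10 CPM to 10.71 with 0.1 CPM. Over the alternatives, the ratios of Itgae ran from 4.47 to 7.72, of Itga2 from 0.99 to 2.88, of Itgav from 0.71 to 1.79 and of Itgb1 from -3.10 to -2.50. Rescaling by DESeq2 factors moved the ratio of Itga4 to -0.74 and of Itgal to -0.82. Without a filter on low genes, 21.6% of genes lay below all spleen sets and 10.2% had a ratio of at most -1.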
